A study of Mus musculus with 16 samples.

Results

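Lmnb1, Lbr and Padi4 were followed across the neutrophil libraries of germ-free and specific pathogen free mice: 3 genes chosen by name out of the 10296 listed in each library, because their products shape or dismantle the neutrophil nucleus. They were selected with their values in these libraries known, so their own values are given as a description with no test. Ly6G+ neutrophils of C57BL/6 mice were sorted on CD45, CD11b, Ly6G and DAPI, and their amplified cDNA was sequenced. The 16 libraries were 3 of germ-free (GF) lung, 3 of specific pathogen free (SPF) lung, 3 of GF spleen, 3 of SPF spleen, 2 of GF blood and 2 of SPF blood. GF mice are raised without microorganisms and SPF mice carry a microbiota without listed pathogens. The labels give no genetic change, no treatment and no age, and leave unsaid whether 2 libraries of a group are 2 animals. The p-values therefore set differences between groups against the scatter of these libraries, and that scatter may be technical.

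The neutrophil nucleus is lobed and unusually deformable, and both features depend on its envelope. Lamin B1, the product of Lmnb1, is a filament protein of the nuclear lamina, the meshwork under the inner nuclear membrane. The lamin B receptor, the product of Lbr, spans the inner nuclear membrane, binds B-type lamins and heterochromatin, and carries a sterol reductase domain. Loss of its function leaves neutrophil nuclei poorly lobed, as in Pelger-Huët anomaly in humans and in ichthyosis mice. Peptidylarginine deiminase 4, the product of Padi4, converts arginines of histones to citrulline. It takes part in the formation of neutrophil extracellular traps (NETs), webs of chromatin and granule proteins that are released once the nuclear envelope has opened.

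Coordinates are from GENCODE M21 on GRCm38. Lbr (ENSMUSG00000004880) lies on the minus strand of chromosome 1 from 181815335 to 181843046 and has 4761 exonic bases. Of these, 509 are shared with 2 other annotated genes, and 1 of them, Dnah14, is on the opposite strand. No strand-aware counting is stated, so Lbr reads there cannot be told apart from those of its neighbours. Padi4 (ENSMUSG00000025330) lies on the minus strand of chromosome 4 from 140745865 to 140774236, has 4835 exonic bases and overlaps no other gene.

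RefSeq promoter sequences (GRCm38.p6) were at hand for 2 of the 3 genes. They are shown because Lbr and Padi4, whose levels varied least between the groups, have promoters that differ in CpG content. The stretches run 5′ to 3′ on the minus strand and end before the RefSeq start. For Lbr that start lies inside the GENCODE gene, whose outer end belongs to other transcripts, and no GENCODE exon covers the printed bases. Capitals mark matches to the motifs searched.
Lbr, chr1:181842402-181842651: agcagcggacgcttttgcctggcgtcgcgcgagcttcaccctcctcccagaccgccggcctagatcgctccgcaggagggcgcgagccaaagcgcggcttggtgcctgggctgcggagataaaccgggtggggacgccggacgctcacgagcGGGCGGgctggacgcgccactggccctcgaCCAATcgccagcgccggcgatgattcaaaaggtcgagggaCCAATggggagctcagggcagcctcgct
Padi4, chr4:140774237-140774453: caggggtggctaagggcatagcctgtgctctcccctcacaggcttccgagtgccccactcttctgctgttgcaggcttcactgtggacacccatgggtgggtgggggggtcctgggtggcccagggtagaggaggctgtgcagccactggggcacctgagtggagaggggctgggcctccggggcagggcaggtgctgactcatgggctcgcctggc

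In the 250 bases upstream of its RefSeq start, Lbr had 31 CpG dinucleotides, more than 94.8% of 32851 promoters, whose median was 6. Padi4 had 3, more than 29.0% of them. The GC content was similar, at 69.6% for Lbr and 66.0% for Padi4. For Padi4 the last 33 bases of that window lie in an annotated exon, so only the first 217 are printed. Of 5 motifs searched on both strands, Lbr held CCAAT (NF-Y) at 2 places, 68 to 64 and 28 to 24 bases upstream, and GGGCGG (SP/KLF) at 98 to 93. These motifs occurred in 33.8% and 32.7% of all promoters. GGAAGT (ETS, in 19.7% of promoters), TTGCNNAA (C/EBP, 9.56%) and GCGGGAA (E2F, 3.82%) matched in neither window, and Padi4 had no match to any of the 5. The matches overlapped no other motif searched and are a description of letters only.

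All 11 neutrophil markers were present in the file, and their summed signal was 36740 to 94094 in every library. The libraries held 104213 to 3033941 recovered reads, and 5 of them (2 of GF spleen, 2 of SPF spleen and 1 of GF blood) held fewer than 250000. The signal is the deposited value, whose steps have the form of an expected read count plus 0.5, scaled in each library. Transcripts of lung structural cells were present in the lung libraries. The 15 measured of 22 such markers summed to 5205 to 12110 in GF lung and 3312 to 6515 in SPF lung, and to at most 122 in any spleen or blood library. Sftpa1, Sftpd, Sftpb, Cldn5, Kdr and Dcn had 0 reads in all 3 GF spleen libraries. Erythroid and platelet markers (11 of 14 measured) summed to 44343 to 99626 in blood, to at most 2094 in lung, and in spleen to at most 149 apart from 1 GF library at 22025. Macrophage and monocyte markers (12 of 16 measured) summed to 1156 to 1338 in lung, 1514 to 1964 in spleen and 1393 to 1978 in blood. In such bulk samples fewer cells of a type and less RNA per cell cannot be told apart.

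**Figure D1:**
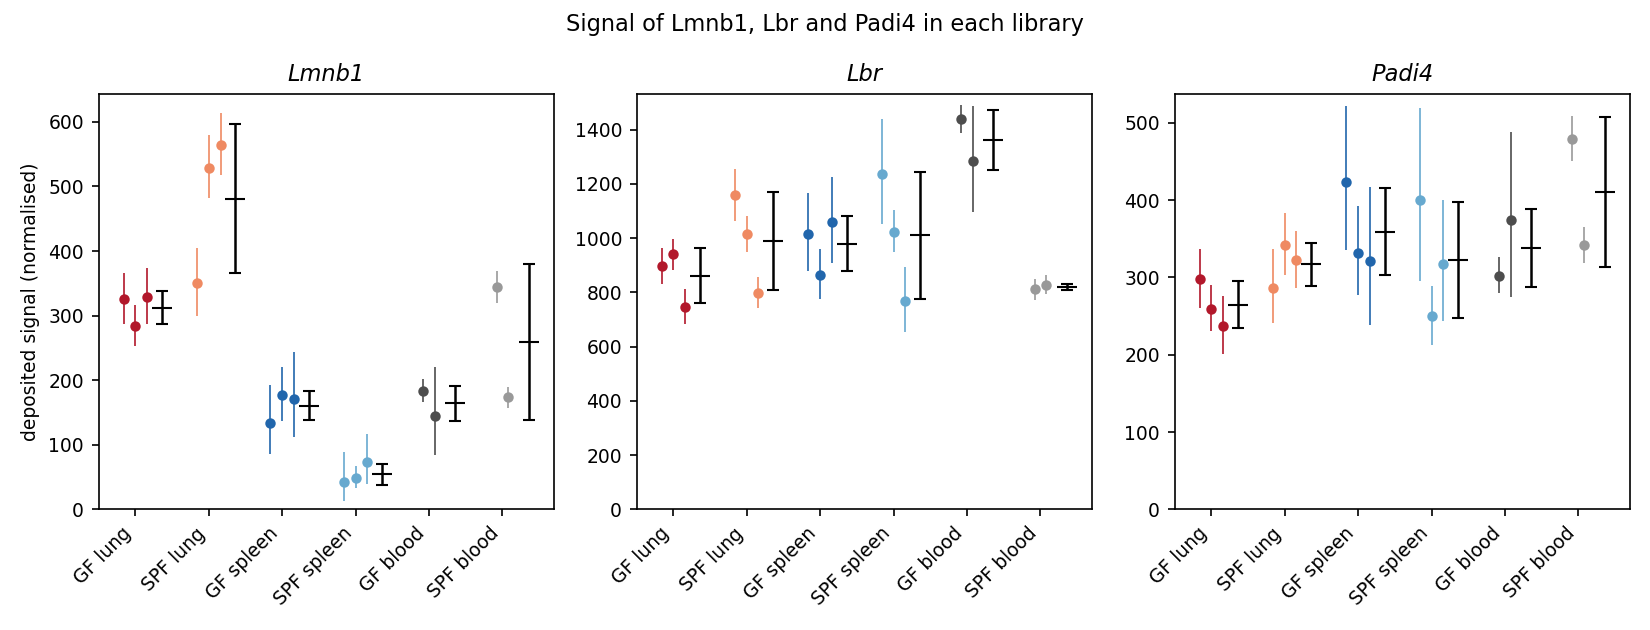
Deposited normalised signal (linear axis from 0) of Lmnb1, Lbr and Padi4 in each library; coloured points are libraries with 95% Poisson intervals of their reads, and black bars are group means with SD. Lmnb1 has the widest range of means, with 481 in SPF lung and 54.4 in SPF spleen, and its libraries overlap in 3 of the 5 pairs of groups next to each other in the order of means, while the ranges of Lbr and of Padi4 overlap between most groups.

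Lmnb1 (ENSMUSG00000024590) lies on the plus strand of chromosome 18 from 56707813 to 56753424, has 2962 exonic bases and overlaps no other gene. It varied most of the 3 genes, and it was highest in lung and lowest in SPF spleen. Its signal was 325, 284 and 328 in the GF lung libraries and 350, 529 and 565 in the SPF lung libraries. In GF spleen it was 134, 177 and 171, and in SPF spleen 41.9, 48.4 and 72.9. In GF blood it was 184 and 144, and in SPF blood 344 and 173. Every lung library of a status thus lay above every spleen and every blood library of that status. The narrowest gap was in SPF mice, between the lowest lung library at 350 and the higher blood library at 344.

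Ordered by mean signal, the Lmnb1 groups ran SPF lung (481 ± 115, SD, n = 3), GF lung (312 ± 25, n = 3), SPF blood (259 ± 121, n = 2), GF blood (164 ± 27.6, n = 2), GF spleen (161 ± 22.9, n = 3) and SPF spleen (54.4 ± 16.3, n = 3). The libraries of SPF lung did not overlap those of GF lung, nor did those of GF spleen overlap SPF spleen. The 3 pairs of neighbours between them overlapped. The lowest values rested on few reads: SPF spleen had 5, 32 and 15 reads of Lmnb1, with 95% Poisson intervals of 12.4 to 88.9, 32.6 to 67.3 and 39.5 to 116 on the signal scale, which cover counting error only. The deepest SPF spleen library, with 640596 reads, was the one at 48.4.

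Lung was set against spleen to ask how the neutrophil transcriptome differs between tissues. In SPF mice the Lmnb1 signal averaged 481 in lung and 54.4 in spleen, a fitted difference of 3.13 (SE 0.27) on the log2(signal + 1) scale on which all differences below are given. In GF mice it averaged 312 in lung and 161 in spleen, a difference of 0.96 (SE 0.27). The groups did not overlap in either status. Such gaps were common: of 8299 tested genes, 24.5% had no overlap between SPF lung and SPF spleen and 27.3% had none between GF lung and GF spleen. A difference larger in size than that of Lmnb1 was seen in 1.99% of tested genes in SPF mice and in 23.2% in GF mice.

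The gap between lung and spleen in Lmnb1 was smaller in GF than in SPF mice, by 2.17 on the log2 scale (GF minus SPF -2.17, SE 0.38). In spleen GF minus SPF was 1.57 (SE 0.27), with means of 161 in GF spleen and 54.4 in SPF spleen. In lung the sign was the opposite, with GF minus SPF at -0.59 (SE 0.27) and means of 312 in GF lung and 481 in SPF lung. No overlap between GF and SPF libraries was seen for 12.1% of tested genes in spleen and for 14.2% in lung. The summed lung structural markers overlapped between the spleen groups, at 50.6 to 109 in GF spleen and 41.0 to 87.7 in SPF spleen. The summed B cell markers (10 of 11 measured) did not, at 477 to 535 in GF spleen and 592.5 to 782 in SPF spleen. Of these 10 markers 0 passed the test there, beside 0.253% of all tested genes higher and 0.0723% lower in GF spleen. The part of these markers in the Lmnb1 difference was not tested.

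Against blood, Lmnb1 was higher in lung by 0.93 (SE 0.30) in GF mice, with means of 312 in lung and 164 in blood. In SPF mice it was higher in lung by 0.94 (SE 0.30), with means of 481 and 259. The SPF value depended on which blood library stood for the group: it was 1.44 without SPF blood replicate 3 and 0.45 without SPF blood replicate 4. Gaps without overlap between lung and blood were found for 42.3% of tested genes in GF mice and 54.1% in SPF mice. Of 10 tested B cell markers, the GF lung libraries had 2 higher than GF blood and the SPF lung libraries 8 higher than SPF blood, with 0 lower. The shares of all tested genes were 7.83% higher and 1.96% lower in GF lung, and 12.5% and 6.63% in SPF lung. The B cell, lung structural and erythroid markers moved with tissue in the same comparisons, and their part in the Lmnb1 differences was not tested.

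Between spleen and blood Lmnb1 behaved differently in the 2 kinds of mice. In GF mice the difference was -0.03 (SE 0.30), with means of 161 in spleen and 164 in blood and overlapping libraries. In SPF mice it was -2.19 (SE 0.30), with means of 54.4 in spleen and 259 in blood and no overlap. It was -1.69 without SPF blood replicate 3 and -2.68 without SPF blood replicate 4. Of the tested genes 23.5% had no overlap between GF spleen and GF blood and 41% had none between SPF spleen and SPF blood. Of 9 tested macrophage and monocyte markers, 1 was higher and 0 lower in GF spleen than in GF blood. In SPF spleen 5 were higher and 1 lower than in SPF blood. Of 11 erythroid and platelet markers, 6 were lower in GF spleen and 9 in SPF spleen, with 0 higher. The shares of all tested genes were 0.47% higher and 0.41% lower in GF spleen, and 3.05% and 4.01% in SPF spleen. The part of these markers in the Lmnb1 differences was not tested. Between GF and SPF blood, where Lmnb1 differed by -0.58 (SE 0.33), its libraries overlapped. That value was -0.09 without SPF blood replicate 3 and -1.08 without SPF blood replicate 4.

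Lbr, whose product anchors lamin B to the inner membrane, had the highest signal of the 3 genes in every library, and per kilobase of exon it had the highest mean in every group. Its signal was 897, 940.3 and 747 in GF lung and 1158, 1014 and 798 in SPF lung. In GF spleen it was 1017, 866 and 1058, and in SPF spleen 1238, 1024 and 769. In GF blood it was 1440.2 and 1283, and in SPF blood 811 and 828. Both GF blood libraries thus stood above every other library, and the remaining groups overlapped their neighbours. The lower of them, GF blood replicate 3, rested on 172.7 reads of Lbr. Its Poisson interval on the signal scale, 1098 to 1487, included SPF spleen replicate 1 (1238) and SPF lung replicate 1 (1158).

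The Lbr means ran from GF blood (1362 ± 111, SD, n = 2) through SPF spleen (1010.4 ± 235, n = 3), SPF lung (990.1 ± 182, n = 3), GF spleen (980.3 ± 101, n = 3) and GF lung (861 ± 102, n = 3) to SPF blood (820 ± 12.3, n = 2). Lbr was lower in GF lung than in GF blood (-0.66, SE 0.22), and lower in GF spleen than in GF blood (-0.48, SE 0.22). No overlap was seen for 42.3% and 23.5% of tested genes in these comparisons. Lbr was higher in GF blood than in SPF blood (0.73, SE 0.24), a contrast in which 52.7% of tested genes had no overlap between 2 and 2 libraries. Differences larger in size than those of Lbr were found in 40.5%, 46.8% and 38.9% of tested genes, in the same order. The summed erythroid and platelet markers did not overlap between the blood groups either. They were 81958 to 99626 in GF blood and 44343 to 70472 in SPF blood. Of these 11 markers 0 passed the test between GF and SPF blood. Their part in the Lbr differences was not tested. The other 6 differences of Lbr lay between -0.19 and 0.27, with SEs of 0.19 to 0.22. Lbr and Lmnb1 therefore did not share an order of groups: GF blood had the highest mean of Lbr but a mean of Lmnb1 below both lung groups, and SPF spleen, with the lowest mean of Lmnb1, came next to GF blood for Lbr.

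Padi4, the histone-citrullinating enzyme, had similar signals in all 6 groups. It was 298, 259.7 and 237 in GF lung and 287, 342 and 322 in SPF lung. In GF spleen it was 424, 332 and 321, and in SPF spleen 400.2, 249 and 317. In GF blood it was 302 and 374, and in SPF blood 479 and 342. The 3 GF lung libraries lay below every GF spleen and every GF blood library, as 27.3% and 42.3% of tested genes also had no overlap in these comparisons, and in the other 7 comparisons the groups overlapped.

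The Padi4 means were 410.4 ± 97.2 in SPF blood (SD, n = 2), 359 ± 56.2 in GF spleen (n = 3), 338 ± 50.8 in GF blood (n = 2), 322 ± 75.5 in SPF spleen (n = 3), 317 ± 28.0 in SPF lung (n = 3) and 265 ± 30.6 in GF lung (n = 3), and each neighbour in that order overlapped the next. The 9 differences of Padi4 ran from -0.43 (GF lung minus GF spleen, SE 0.22) to 0.17 (GF spleen minus SPF spleen, SE 0.22). In SPF mice lung and spleen were level (0.00, SE 0.22), whereas Lmnb1 differed there by 3.13.

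**Figure D2:**
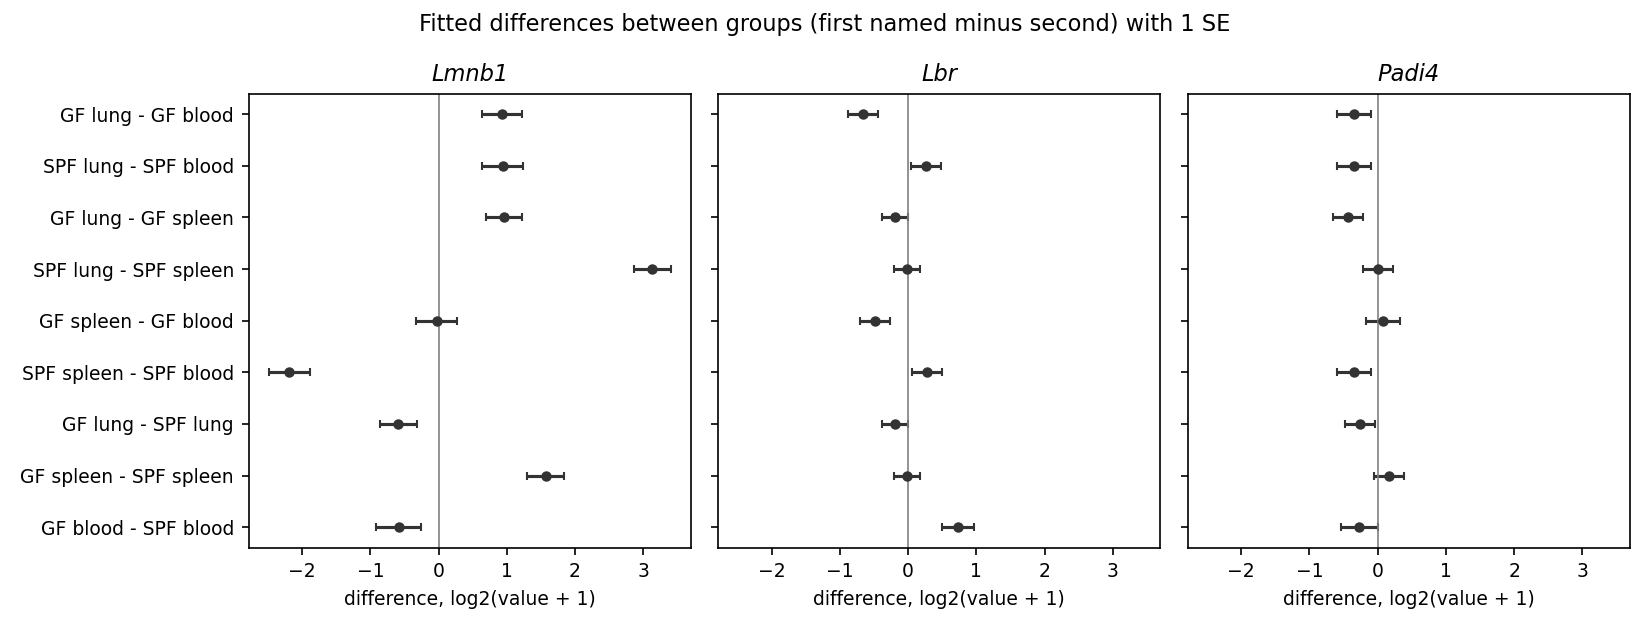
Fitted differences on the log2(signal + 1) scale for 9 pairs of groups (first named minus second), as points with bars of 1 SE. Lmnb1 spans -2.19 to 3.13, whereas Lbr spans -0.66 to 0.73 and Padi4 -0.43 to 0.17.

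Within a library the ratio of 2 genes does not depend on the scaling of that library. The ratio of Lmnb1 to Lbr signal was 0.302 to 0.440 in GF lung and 0.302 to 0.708 in SPF lung. It was 0.132 to 0.204 in GF spleen, 0.034 to 0.095 in SPF spleen, 0.113 to 0.127 in GF blood and 0.209 to 0.425 in SPF blood. Lmnb1 was thus lowest relative to Lbr in the 3 SPF spleen libraries, below every other library. The ratio of Lmnb1 to Padi4 was above 1 in all 6 lung libraries (1.09 to 1.39 in GF lung and 1.22 to 1.75 in SPF lung). It was below 1 in every spleen and blood library, with 0.317 to 0.533 in GF spleen, 0.105 to 0.230 in SPF spleen, 0.386 to 0.607 in GF blood and 0.508 to 0.719 in SPF blood. The ratio of Padi4 to Lbr kept a narrower span, 0.210 to 0.591 over all libraries.

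**Figure D3:**
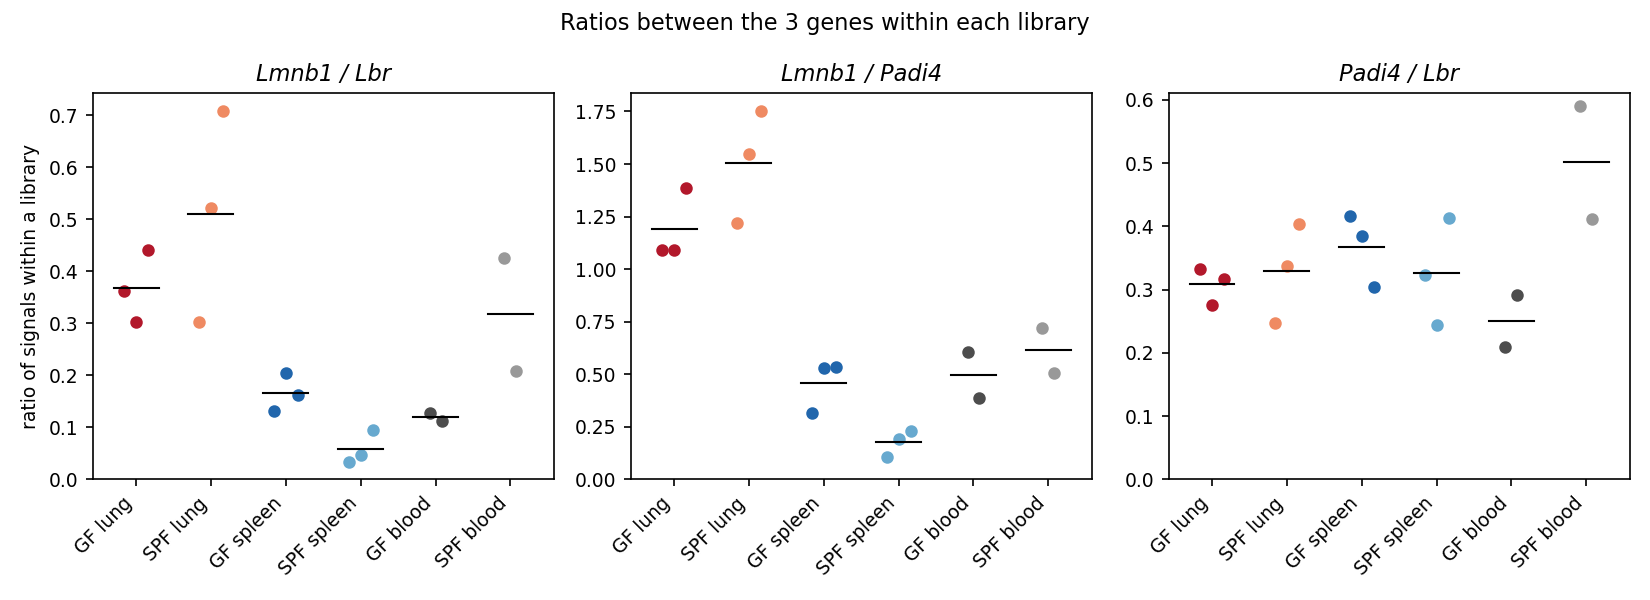
Ratios of deposited signals within each library (linear axes from 0); points are libraries and black lines group means. The ratio of Lmnb1 to Padi4 exceeds 1 in the 6 lung libraries and stays between 0.105 and 0.719 in the 10 spleen and blood libraries.

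Per kilobase of exon, the scale on which levels of different genes can be compared, Lbr averaged 172 to 286 signal units in the 6 groups and Padi4 54.8 to 84.9. Lmnb1 averaged 163 in SPF lung and 18.4 in SPF spleen. It was above Padi4 per kilobase in both lung groups (106 against 54.8 in GF lung, 163 against 65.6 in SPF lung) and below it in both spleen groups (54.3 against 74.2 in GF spleen, 18.4 against 66.7 in SPF spleen). In GF blood it was below Padi4 (55.4 against 69.9). In SPF blood the means were 87.4 ± 40.8 for Lmnb1 and 84.9 ± 20.1 for Padi4 (SD, n = 2), so with length taken into account the mean of Lmnb1 was not lower there, unlike in the ratios of signal, which leave length out.

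The genes whose pattern was most like that of Lmnb1 over the 16 libraries, by Pearson correlation on the log2 scale among 1394 candidates, were Il1r2, a decoy receptor for interleukin 1 (r = 0.93), Samsn1 (0.91), Smim3 (0.91), Cd14, the co-receptor for bacterial lipopolysaccharide (0.91), and C5ar1, the receptor for complement C5a (0.90). Il1r2 averaged 3340.0 in GF lung, 3610.0 in SPF lung and 579 in SPF spleen. For Lbr they were Cmtm6, Aacs, Stat3, Cd101 and Capza1 (r from 0.79 to 0.84), and for Padi4 they included Laptm5, Tmem71, Atp5f1 and Celf2 (0.64 to 0.68). The libraries share tissue, depth and cell makeup, so these values describe likeness only. Between the 3 genes themselves r was -0.30 for Lmnb1 and Lbr, -0.08 for Lmnb1 and Padi4, and 0.11 for Lbr and Padi4.

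Other genes of the lamina and inner nuclear envelope differed in few cases. Of 26 listed besides Lmnb1 and Lbr, 23 were measured and 22 tested (limma, adjusted p under 0.05). Between SPF lung and SPF spleen 2 were higher and 0 lower in lung, where 7.68% of all tested genes were higher and 1.99% lower, and the list's median difference was -0.01 against 0.06 for all genes. Lmna, which encodes lamins A and C, averaged 44.4 ± 13.7 in SPF lung and 3.30 ± 0.82 in SPF spleen (SD, n = 3 each; 3.37, SE 0.49, adjusted p = 6.18e-06). SPF spleen held 2 Lmna reads in all and SPF lung 108, a ratio of rates of 22.1 with a 95% counting interval of 5.98 to 185. Emd, the inner membrane protein emerin, averaged 115 ± 46.7 in SPF lung and 33.5 ± 19.6 in SPF spleen (1.90, adjusted p = 0.00226). All 15 tested markers of lung structural cells were higher in SPF lung than in SPF spleen as well (median 4.59), and their part in the Lmna and Emd differences was not tested. Lmnb2, the other B-type lamin gene, did not pass there (-0.58). It had 5 reads in all in SPF lung and 3 in SPF spleen. The ratio of rates was 0.683, with a 95% counting interval of 0.133 to 4.4, too wide to show whether Lmnb2 moved like Lmnb1.

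Between GF lung and GF spleen 0 of the 22 passed in either direction, where 8.03% of all tested genes were higher and 2.14% lower in lung. Lmna and Emd differed there by 1.10 and 0.62. None of the listed genes passed the test of the difference between GF and SPF mice in the gap of lung over spleen, in which 1 of all tested genes passed and 561 had an unadjusted p under 0.05. In spleen itself Lmna was higher in GF than in SPF mice, at 27.7 ± 11.5 against 3.30 ± 0.82 (2.67, SE 0.49, adjusted p = 0.00586), on 17 reads against 2 in all (ratio of rates 11.2, 95% counting interval 2.65 to 99.6). It was the 1 of 22 higher there, with 0 lower, while 0.253% of all tested genes were higher and 0.0723% lower in GF spleen. This call was lost without GF spleen replicate 4 and without the 5 libraries under 250000 reads (highest adjusted p = 0.135).

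Against blood the envelope list gave 0 calls of 22 in GF lung, where 7.83% of tested genes were higher and 1.96% lower. In SPF lung 2 were higher and 1 lower, where the shares of all genes were 12.5% and 6.63%. These were Lmna (2.20, adjusted p = 0.00394), Zmpste24, the protease that matures prelamin A (1.47, adjusted p = 0.025), and Nrm, the inner membrane protein nurim, which averaged 38.5 ± 6.58 in SPF lung and 111 ± 13 in SPF blood (-1.51, adjusted p = 0.0137). All 15 lung structural markers were higher in SPF lung than in SPF blood (median 5.71), and their part was not tested here either. The calls of Lmna, Zmpste24 and Nrm were each lost without SPF blood replicate 4 and those of Zmpste24 and Nrm also without SPF blood replicate 3 or SPF lung replicate 2. That of Zmpste24 was lost without SPF lung replicate 3 and after quantile normalisation too. Zmpste24 was also higher in SPF spleen than in SPF blood (40.1 ± 22.4 against 7.52 ± 0.73; 2.13, adjusted p = 0.00511), a call lost without SPF blood replicate 3. It was the 1 of 22 called there, beside 3.05% of all tested genes higher and 4.01% lower in SPF spleen. Between GF spleen and GF blood 0 of 22 passed, beside 0.47% higher and 0.41% lower.

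**Figure D4:**
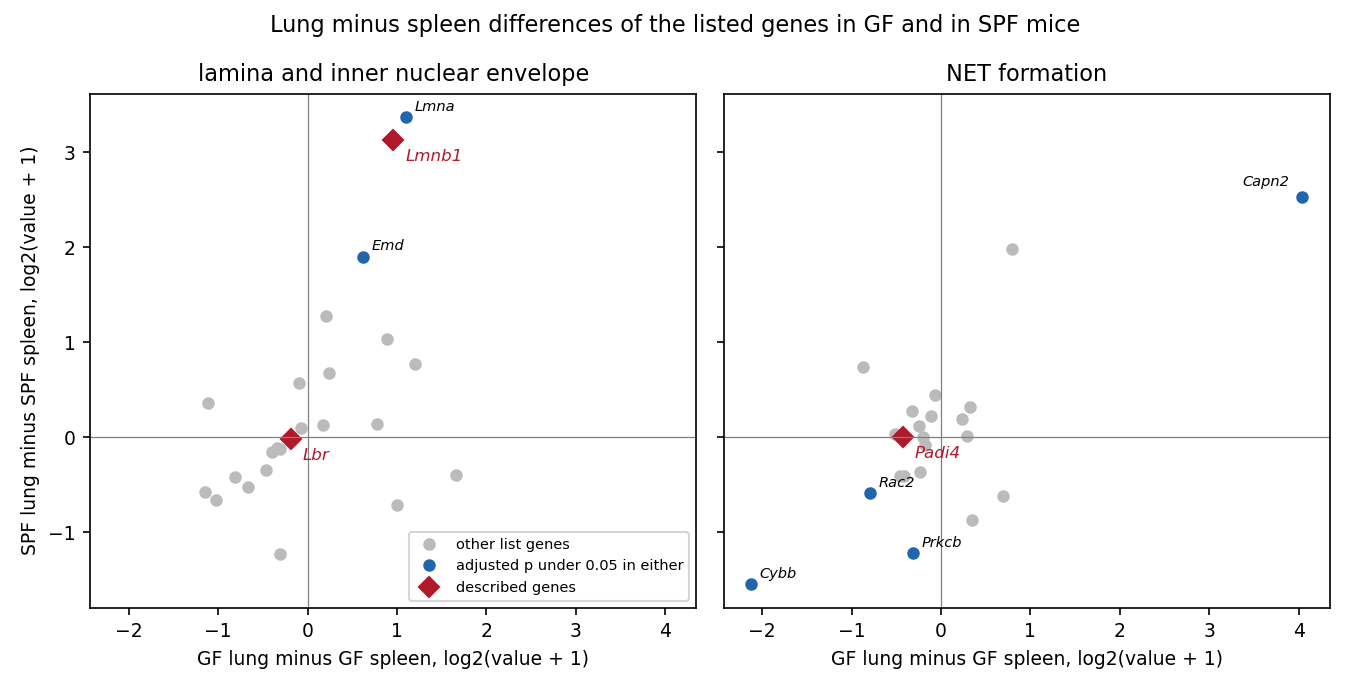
Lung minus spleen differences on the log2(signal + 1) scale in GF mice (x axis) and SPF mice (y axis) for tested genes of the envelope list and the NET list; blue points passed an adjusted p of 0.05 in either status and red diamonds are Lmnb1, Lbr and Padi4. Lmna (3.37) and Lmnb1 (3.13) stand highest on the SPF axis, and Padi4 lies near 0 on it.

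Other genes linked to NET formation moved in both directions. Of 34 listed besides Padi4, 25 were measured and 22 tested, and Padi1, Padi3, Elane, Mpo, Prtn3 and Ctsg were among those not analysed here. In lung against spleen 1 was higher and 2 lower in GF mice, beside 8.03% of all tested genes higher and 2.14% lower. In SPF mice 1 was higher and 3 lower, beside 7.68% and 1.99%. Cybb encodes the catalytic subunit of the oxidase that makes the oxidants used in NET formation, and it was lower in lung in both. It averaged 130.2 ± 21.8 in GF lung and 590 ± 226 in GF spleen (-2.12, SE 0.28, adjusted p = 1.25e-06), and 158 ± 60.2 in SPF lung and 458 ± 128 in SPF spleen (-1.55, adjusted p = 0.000152). Rac2, a small GTPase that activates the oxidase, was lower in lung too (-0.79, adjusted p = 0.000994 in GF mice; -0.59, adjusted p = 0.0166 in SPF mice). The SPF call of Rac2 was lost without SPF lung replicate 2 or 3, without SPF spleen replicate 2 or 4, and without the libraries under 250000 reads. Prkcb, a protein kinase C, was lower in SPF lung than in SPF spleen (-1.22, adjusted p = 0.0376), a call lost without any of 6 single libraries, which were the 3 of SPF lung, SPF spleen replicates 2 and 4 and SPF blood replicate 4. Capn2, a subunit of a calcium-dependent protease, was the gene higher in lung, with 133 reads in GF lung and 0 in GF spleen, and 57 reads in SPF lung and 3 in SPF spleen (ratio of rates 7.79, 95% counting interval 2.53 to 38.9). The markers of lung structural cells were higher in the same lung libraries, and their part in the Capn2 difference was not tested.

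In lung against blood 2 of 22 NET genes were higher and 3 lower in GF mice, beside 7.83% of all tested genes higher and 1.96% lower. In SPF mice 3 were higher and 4 lower, beside 12.5% and 6.63%, so the higher genes were about as frequent as among all genes in both. Rac2 was lower in lung in both (-0.97, adjusted p = 0.000365 in GF mice; -1.48, adjusted p = 4.68e-07 in SPF mice), and so was Selplg, the ligand of P-selectin (-0.69, adjusted p = 0.00459; -0.99, adjusted p = 5.19e-05). Both Selplg calls were lost after quantile normalisation, and the GF one also without GF blood replicate 2. Itgb2, the integrin beta 2 chain, was lower in GF lung (1967 ± 219 against 3142 ± 90.9 in GF blood; -0.68, adjusted p = 0.00994), a call lost without GF lung replicate 4 or GF blood replicate 2. In spleen against blood Cybb was higher in GF mice (2.21, adjusted p = 6.07e-05), where it was the 1 of 22 called, beside 0.47% of all tested genes higher and 0.41% lower. In SPF mice 2 were higher and 4 lower in spleen, beside 3.05% and 4.01%, with Cybb among the higher (1.73, adjusted p = 0.000951) and the oxidase subunit gene Cyba among the lower (-0.92, adjusted p = 0.0201). Without the trended and robust prior, the calls of Selplg and Itgb2 in GF lung minus GF blood, of Rac2 in both lung minus spleen comparisons and of Cyba were lost. The call of Cyba was also lost after quantile normalisation, without SPF spleen replicate 1, without SPF blood replicate 3, and without the libraries under 250000 reads.

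Between GF and SPF mice 0 of 22 envelope and 0 of 22 NET genes passed in lung, where 0.012% of all tested genes were higher and 0.012% lower in GF lung and 332 had an unadjusted p under 0.05. In blood 1 NET gene was higher, Itgam, the integrin alpha M chain, with 1151 ± 69.1 in GF blood and 488 ± 115 in SPF blood (1.26, SE 0.26, adjusted p = 0.0121), beside 0.795% of tested genes higher and 0.53% lower. That call was lost without GF blood replicate 3, without SPF blood replicate 3 and without the trended and robust prior, and Itgam shares its symbol with a second, overlapping entry of the file, so its level is uncertain. In spleen 0 of 22 NET genes passed, beside 0.253% higher and 0.0723% lower.

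Among other lists with a bearing on the 3 genes, a list of neutrophil granule and maturation genes differed most between lung and spleen. It holds granule genes such as Ltf, Ngp and Camp, but also Cebpe, Anxa1, Tspo and Cd177. Its genes Ly6g and Mmp9 are among the neutrophil markers as well. In GF lung 11 of 14 were lower than in GF spleen and 0 higher (median -2.03), beside 2.14% of all tested genes lower and 8.03% higher (median 0.11). In SPF lung 9 of 14 were lower than in SPF spleen and 0 higher (median -1.48), beside 1.99% and 7.68% (median 0.06). Cd177, a neutrophil surface protein, averaged 245 ± 29.4 in GF lung and 1202 ± 376 in GF spleen (-2.25, adjusted p = 9.57e-09), and 190.0 ± 49.2 in SPF lung and 660 ± 53.7 in SPF spleen (-1.82, adjusted p = 4.75e-07). Between GF and SPF spleen, where Lmnb1 differed by 1.57, 0 of 14 passed in either direction, beside 0.253% of all tested genes higher and 0.0723% lower. Their median there was 0.65, against 0.01 for all genes, and 11 of 14 had a positive difference. Their part in the Lmnb1 differences was not tested.

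Cholesterol synthesis is the pathway of the sterol reductase activity of the Lbr product. Of its 17 tested genes, 2 were higher and 0 lower in the GF lung libraries than in those of GF blood, beside 7.83% and 1.96% of all tested genes (median 0.81, against 0.15 for all genes). In SPF mice 3 were higher and 1 lower in lung, beside 12.5% and 6.63% (median 1.14, against 0.16). For Lbr itself lung minus blood was -0.66 in GF mice and 0.26 in SPF mice. Of 21 tested nuclear pore genes 1 was higher in GF lung and 3 in SPF lung than in blood, with 0 lower, against the same shares of all genes. Nup98 was the 1 higher in SPF lung than in SPF spleen (1.54, adjusted p = 0.0153), where 7.68% of all tested genes were higher. The call of Nup98 was lost without SPF lung replicate 2 and without SPF spleen replicate 2 or 4. Of 22 tested heterochromatin partners 3 were higher in GF lung and 2 in SPF lung than in spleen, with 0 lower, beside 8.03% and 7.68% of all tested genes higher. H3f3b, which encodes the histone variant H3.3, averaged 2319 ± 246 in GF lung and 918 ± 87.0 in GF spleen (1.34, adjusted p = 3.64e-06), and 2747 ± 570 in SPF lung and 1287 ± 122 in SPF spleen (1.08, adjusted p = 9.62e-05). H3f3a, a second H3.3 gene, was not called in either, with 1490 ± 65.8 in SPF lung and 1590 ± 282 in SPF spleen.

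Of 12 tested cell cycle genes 3 were higher and 1 lower in GF lung than in GF spleen, beside 8.03% and 2.14% of all tested genes. Their median there was 0.64, against 0.11 for all genes. In SPF lung 2 were higher and 0 lower than in SPF spleen, beside 7.68% and 1.99%. There the median was -0.4, against 0.06, and 5 of 12 had a positive difference. The 1 lower in GF lung was Top2a (-2.54, adjusted p = 0.0141), on 2 reads in GF lung and 7 in GF spleen. That call was lost without GF lung replicate 2 or 3. Tuba1b, a tubulin chain, averaged 205 ± 8.51 in GF lung and 49.9 ± 10.6 in GF spleen. It averaged 131 ± 16.8 in SPF lung and 64.4 ± 10.8 in SPF spleen, a call lost without SPF lung replicate 2 or 3, without SPF spleen replicate 4 and without the libraries under 250000 reads.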

How the data were processed

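The deposited table gives a linear signal for each gene in each library, and its header names no unit. CASAVA, RSEM 1.3.1, limma and the assembly mm10 are named per the submitters' processing notes, while the filter and the scaling between libraries are not given in the sources used here. From the values, the deposited signal is an expected count plus 0.5, scaled per library, and recovered reads (104213 to 3033941 per library) were used only for depth and Poisson intervals. GENCODE M21 matched 10275 of 10296 identifiers.

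Genes that reached a signal of 10 in 2 or more libraries were kept (8299, with 1997 removed). Differences were fitted in limma 3.58.1 (R 4.3.3) on log2(value + 1), with 6 group means in 1 model of all 16 libraries, a prior that was trended and robust, and two-sided p-values adjusted over all genes by Benjamini-Hochberg (threshold 0.05). This scale can understate changes of low genes. It can also create differences between them, because the value of a gene with 0 reads is higher in shallower libraries. Hmgn1 had 0 reads in both blood groups, yet its values did not overlap (0.2338 to 3.704 in GF blood, 0.196 to 0.2258 in SPF blood). The part of depth in the shares of genes without overlap was not tested. Named genes of 7 pathway lists were those of smallest p, up to 4 per list and comparison, with a mean of at least 10 in the higher group, and part of them are not reported here. The members and lists were chosen with earlier results of these data known. Alternatives covered the pseudocount, filter, scaling, prior, library weights, replicate numbers and libraries left out.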

Additional observations from a re-analysis of the deposited data

Results flagged for a closer look

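The GF minus SPF difference of Lmnb1 had opposite signs in lung and in spleen, with no overlap between GF and SPF libraries in either tissue. It was -0.59 in lung (284 to 328 in the 3 GF libraries and 350 to 565 in the 3 SPF libraries) and 1.57 in spleen (134 to 177 in the 3 GF libraries and 41.9 to 72.9 in the 3 SPF libraries), on the log2 scale. Of all tested genes 14.2% had no overlap between GF and SPF libraries in lung and 12.1% had none in spleen. A difference larger in size than that of Lmnb1 was seen in 20.1% in lung and 2.37% in spleen. The difference between the tissues was not tested, because Lmnb1 was chosen with these values known.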

How the results depend on the processing

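Of 702 differences of Lmnb1, Lbr and Padi4 recomputed under 26 alternatives, 685 moved by no more than the residual SD of the gene. Many of these could not move. A difference of group means does not depend on the filter, on the prior or on libraries of other groups. Without the 5 libraries under 250000 reads, Padi4 moved to 0.34 in SPF lung minus SPF spleen, -0.70 in SPF spleen minus SPF blood and 0.41 in GF spleen minus SPF spleen, and Lbr to -0.73 in GF spleen minus GF blood. After quantile normalisation Lbr in SPF spleen minus SPF blood was 0.59. With 1 library left out, Lmnb1 ranged from 0.45 to 1.44 in SPF lung minus SPF blood, -2.68 to -1.69 in SPF spleen minus SPF blood and -1.08 to -0.09 in GF minus SPF blood. Padi4 ranged from -0.60 to -0.11 in SPF lung and in SPF spleen minus SPF blood, and from -0.51 to -0.02 in GF minus SPF blood. A blood group then holds 1 library, assumed to vary like the other groups.

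Counts of listed genes called moved more. GF lung minus GF blood (14) gave 7 with a filter of 100, 9 after quantile normalisation, 9 without trend and robust prior, 27 without the shallow libraries and 5 to 16 with 1 library left out. SPF lung minus SPF blood (34) gave 18, 20 and 21 under the first 3 of these and 14 to 36 with 1 left out. SPF lung minus SPF spleen (22) gave 13 with a filter of 100 and 13 to 27 with 1 left out. SPF spleen minus SPF blood (17) gave 27 with no pseudocount, 11 after quantile normalisation, 8 without trend and robust prior and 4 to 24. GF minus SPF spleen (1) gave 2 with a pseudocount of 5, median-ratio rescaling or array weights, 0 with a filter of 100 and 1 to 4. GF minus SPF blood (1) gave 3 with a filter of 100 or array weights, 2 with median-ratio rescaling or without the shallow libraries, 0 without trend and robust prior and 0 to 5.

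Same-numbered libraries of a status did not deviate together (r from -0.13 to 0.07 over 9 pairs, 0 above 0.1). With the replicate block (correlation -0.036) the differences of Lmnb1 were 3.14 in SPF lung minus SPF spleen and 1.58 in GF minus SPF spleen. Quantile normalisation shifted the median difference of all genes to -0.10 in both lung minus blood comparisons, against 0.15 in GF and 0.16 in SPF mice before it. The split of listed calls was 10 higher and 4 lower in GF lung minus GF blood, against 8 and 8 after median-ratio rescaling, and 11 higher and 6 lower in SPF spleen minus SPF blood, against 11 and 0 after quantile normalisation. The median-ratio calls were 1 and 1 in GF minus SPF spleen and in GF minus SPF blood. A fit with voom weights was not run, because not all low values were whole reads (91.4% to 98.7% of them in each library were). The share of genes at 0 reads was 12.2% to 36.9% in the spleen libraries, 37.7% in GF blood replicate 3 and at most 9.8% in the others, so low genes were measured less precisely in the shallow libraries.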
